A study of Mus musculus with 22 samples.

Results

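The gene module examined here comprises 35 mouse genes of glycolysis and of the response to low oxygen. They were taken as the probes whose gene name, older symbol or RefSeq accession belonged to a listed glycolytic enzyme, glucose or lactate carrier, regulator of glycolytic flux, oxygen sensor or target of hypoxia-inducible factor. All 35 genes were on the array, through 60 of its 41174 probes, and all 35 were among the 18627 genes tested. Each gene is read from its brightest probe, and the differences of its other tested probes are given beside it. The study compared forelimbs of mouse embryos of strain 129 at 13.5 days, 9 wild type and 13 knockout for Chsy1. The product of this gene, a chondroitin sulfate synthase, extends the sugar chains that cartilage proteoglycans carry. Agilent arrays with 2 colours were used, with forelimb RNA in Cy5 and a universal mouse reference, a fixed RNA mixture of neither genotype, in Cy3. The dyes were not swapped. The labels call the samples biological replicates and state neither the knockout allele nor whether a sample was 1 embryo or a pool.

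Glycolysis splits glucose into pyruvate, and lactate dehydrogenase turns pyruvate into lactate so that the pathway can run without oxygen. Hypoxia-inducible factor, of which Hif1a encodes the oxygen-sensitive subunit, is hydroxylated by the prolyl hydroxylases Egln1 and Egln3 and then degraded when oxygen is present. When oxygen is low it binds a short DNA element and raises transcription of glycolytic enzymes, of Vegfa and of its own hydroxylases. The early limb cartilage is avascular, and Hif1a is known to be needed for the survival of its chondrocytes.

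Chsy1 itself checked the labels. Its log2 ratio of sample to reference ranged from 1.28 to 2.02 in the 9 wild-type arrays and from -5.12 to -4.05 in 12 of the 13 knockout arrays. The library labelled knockout 1 stood at 0.15, above the other knockout arrays and below every wild-type array, and without it 0 members were called by limma. Over all arrays Chsy1 fell by 6.11 on the log2 scale (SE 0.44, limma, adjusted p = 1.27e-08). Between 27214 and 30599 of the 43379 spots other than controls were well above background per array, and correlations between arrays ran from 0.886 to 0.993. Wild-type 1 and knockout 12 stood apart in tissue markers. The 16 cartilage markers averaged -1.08 and -0.61 there on the log2 scale relative to the mean of all arrays, and the 12 endothelial markers averaged -1.02 and -0.81. The 3 trunk and liver markers tested did not set these arrays apart. They averaged 0.98 in wild-type 1 and -0.33 in knockout 12, but also 0.99 in knockout 9 and 0.71 in wild-type 2. Apoa1, Ttr and Serpina1a of that list were not tested. Each of the 6 slides held arrays of both genotypes. Slide position 1 held wild-type arrays only, position 2 held 3 arrays of each genotype with knockout 1 among them, and positions 3 and 4 held knockout arrays only.

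The stretch just before the start of 6 members is shown because the patterns across arrays described further on turn on these genes, Pgk1 with Tpi1, Pgam1 and Egln1 in one and Ldha with Gpi1 in the other. Each line gives the 250 bases upstream of a RefSeq start (GRCm38.p6), 5′ to 3′ along the gene, with capitals marking ACGTG or GCGTG on either strand, the 5-letter forms of the element bound by hypoxia-inducible factor. The windows lie at chrX:106186850-106187099 (plus strand), chr6:124814159-124814408 (minus strand), chr19:41911621-41911870 (plus strand), chr8:124949255-124949504 (minus strand), chr7:46845554-46845803 (plus strand) and chr7:34230337-34230586 (minus strand).
Pgk1: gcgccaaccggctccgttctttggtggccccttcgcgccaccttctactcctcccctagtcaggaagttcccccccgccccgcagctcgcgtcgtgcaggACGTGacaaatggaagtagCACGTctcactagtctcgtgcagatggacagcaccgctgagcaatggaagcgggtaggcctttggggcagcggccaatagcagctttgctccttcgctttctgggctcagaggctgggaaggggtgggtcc
Tpi1: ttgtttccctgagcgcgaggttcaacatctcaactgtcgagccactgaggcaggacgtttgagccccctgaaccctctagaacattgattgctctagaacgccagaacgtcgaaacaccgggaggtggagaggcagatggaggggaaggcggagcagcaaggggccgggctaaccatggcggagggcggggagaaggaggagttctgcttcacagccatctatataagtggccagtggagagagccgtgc
Pgam1: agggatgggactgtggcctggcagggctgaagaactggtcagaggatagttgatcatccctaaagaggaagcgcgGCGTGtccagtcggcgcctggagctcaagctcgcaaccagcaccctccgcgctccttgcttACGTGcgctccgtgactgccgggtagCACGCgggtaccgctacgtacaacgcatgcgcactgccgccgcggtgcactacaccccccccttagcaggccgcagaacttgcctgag
Egln1: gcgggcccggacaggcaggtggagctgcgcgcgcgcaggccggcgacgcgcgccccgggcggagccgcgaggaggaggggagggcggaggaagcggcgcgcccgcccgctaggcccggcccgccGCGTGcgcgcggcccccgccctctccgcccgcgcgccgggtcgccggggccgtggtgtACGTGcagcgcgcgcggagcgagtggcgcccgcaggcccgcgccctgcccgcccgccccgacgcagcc
Ldha: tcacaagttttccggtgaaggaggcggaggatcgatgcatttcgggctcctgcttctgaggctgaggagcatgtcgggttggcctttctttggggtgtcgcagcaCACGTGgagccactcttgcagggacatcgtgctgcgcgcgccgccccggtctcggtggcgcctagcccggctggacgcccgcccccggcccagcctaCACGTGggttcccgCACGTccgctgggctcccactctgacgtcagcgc
Gpi1: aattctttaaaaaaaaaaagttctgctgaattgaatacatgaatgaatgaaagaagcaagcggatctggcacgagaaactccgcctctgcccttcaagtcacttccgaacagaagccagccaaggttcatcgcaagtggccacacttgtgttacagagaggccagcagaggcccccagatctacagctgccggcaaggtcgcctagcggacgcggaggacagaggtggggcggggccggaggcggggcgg

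Counting both strands, the windows of Pgk1 and Egln1 held 2 matches each and that of Pgam1 held 3. The Ldha window held 5, where ACGTG and its reverse CACGT overlap in CACGTG and count once for each strand, and the window of a second Ldha start held 1. The Tpi1 and Gpi1 windows held none of these letters. RefSeq windows were matched for 33 of the 35 members, and Slc2a3 and Ndrg1 had no entry. Of the 33 matched members, 31 (93.9%) had at least 1 match in some window, against 41.5% of 27018 genes. Of the 46 windows of members 84.8% held a match, against 38.6% of 32841 windows of all genes. Both motifs contain a CG pair, and member windows held a median of 14 CG pairs against 6 in all windows, so base composition moved with the motif share and its part was not tested. Members were chosen in part as targets of hypoxia-inducible factor, so their higher share describes that choice and supports nothing. There were 46 windows for 33 members and 32841 for 27018 genes, and a gene with more windows can match more often. A match describes letters and not a bound site.

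No member differed between knockout and wild-type forelimbs past the threshold. At an adjusted p of 0.05 (limma, Benjamini-Hochberg over all 18627 genes) 0 of 35 members and 4 of all genes (0.0215%) were called, each of the 4 lower in knockout. At an unadjusted p under 0.05 there were 2 members, both lower, against 992 of all genes (5.33%), of which 735 (3.95%) were lower and 257 (1.38%) higher. These 2 were Aldoc, the aldolase isozyme of brain, and Eno3, the muscle enolase. The genotypes did not overlap for 0 members and for 0.00537% of all genes. The 95% interval of the difference included 0 for 33 members, and for all 35 it lay within 1.5-fold in either direction. Of all 18627 genes, 17635 had an interval that included 0 and 17994 had one within 1.5-fold. The members' counts therefore show nothing particular to them. The members' median difference was 0.022 on the log2 scale, with 14 lower and 21 higher, against -0.0072 over all genes, of which 53.4% were lower. The p-values set each difference against the spread between samples of the same genotype.

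**Figure D1:**
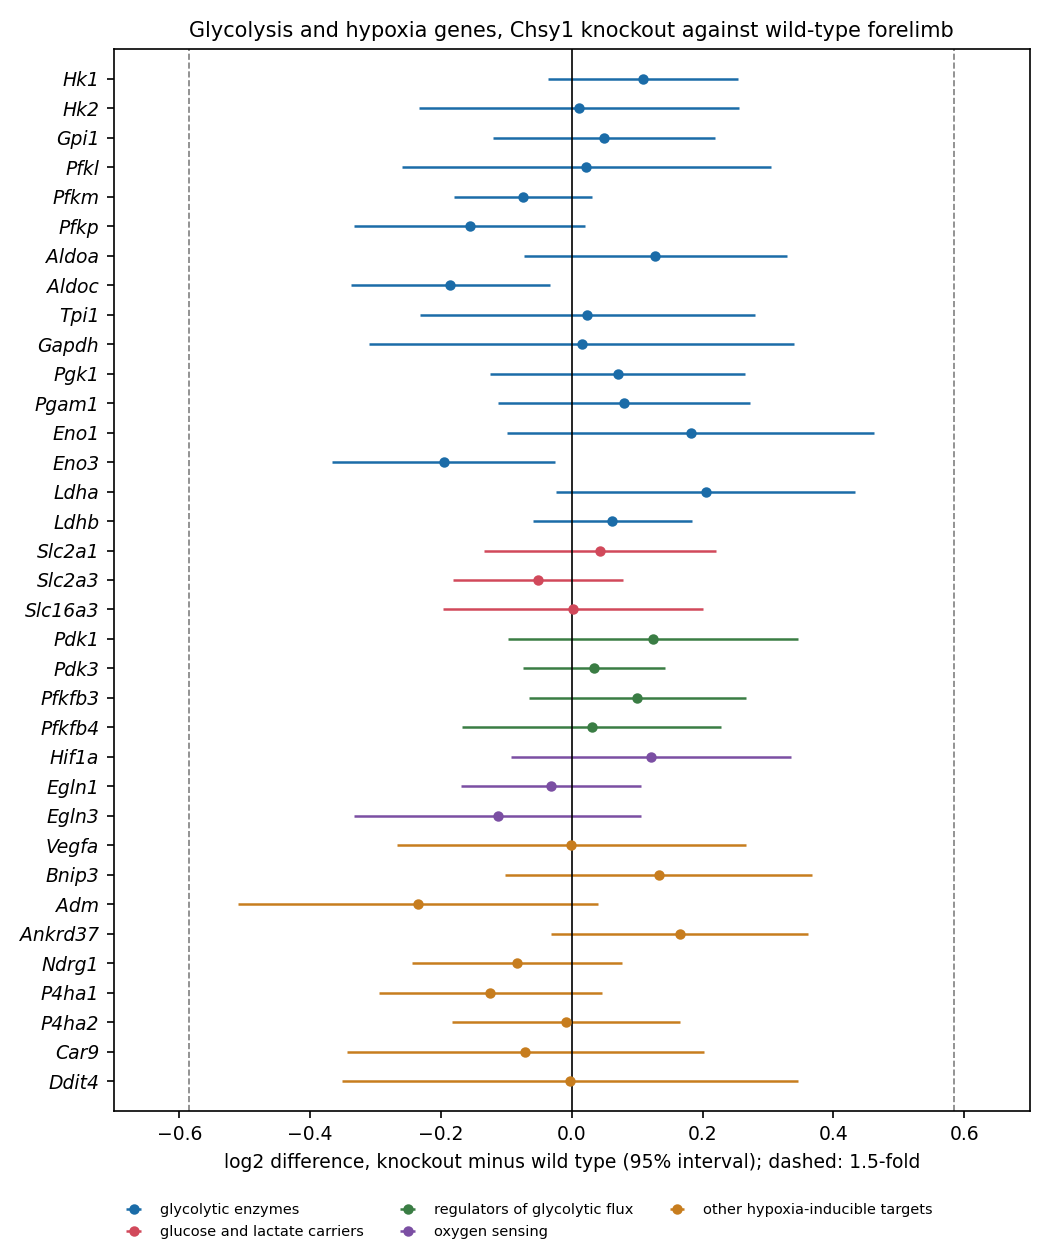
Difference between Chsy1 knockout (n = 13) and wild-type (n = 9) forelimb for each of the 35 genes on the log2 scale, with the 95% interval of the limma fit; colours mark the roles and dashed lines a 1.5-fold change. All 35 intervals lie inside the dashed lines, and those of Aldoc and Eno3 alone miss 0.

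Among the 16 glycolytic enzymes 12 were higher and 4 lower in knockout, with a median difference of 0.036. The log2 ratio of Eno3, read at chr11:70478622-70478681 (mm8), ran from -1.15 to -0.55 with a median of -0.69 in the 9 wild-type arrays and from -1.24 to -0.73 with a median of -1.03 in the 13 knockout arrays. No knockout array reached the wild-type median, but the ranges overlapped. Eno3 differed by -0.20 (SE 0.082, p = 0.0254, adjusted p = 0.918 by limma). Markers of skeletal muscle, the tissue that uses this enolase, lay on the same side: 19 of 20 were lower in knockout, none past the threshold, with a median of -0.18. Their mean per array ran from -0.58 to 0.46 in wild type and from -0.51 to 0.33 in knockout, relative to all arrays, and all 20 passed the background filter. Their part in the Eno3 difference was not tested. In whole limbs, fewer cells of a type and less RNA per cell cannot be told apart.

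Aldoc, read at chr11:78142657-78142716 (mm8), ran from -2.56 to -1.81 with a median of -2.27 in the 9 wild-type arrays and from -2.60 to -2.17 with a median of -2.45 in the 13 knockout arrays. Only 1 knockout array exceeded the wild-type median, again with overlapping ranges. On 5 of 6 slides the knockout mean was below the wild-type mean, as it was for Eno3. The difference was -0.19 (SE 0.074, p = 0.0193, adjusted p = 0.918 by limma), and -0.13 without wild-type 1, the highest array for this gene. The nerve markers, from a tissue that uses this aldolase, did not lie on the same side. Of 10 tested, 8 were higher in knockout, none past the threshold. Relative to all arrays their mean was -0.70 in wild-type 1, -0.095 to 0.13 in the other wild-type arrays and -0.22 to 0.20 in knockout. Their part in the Aldoc difference was not tested. Both genes lay on the same side within slide position 2, where Eno3 differed by -0.32 and Aldoc by -0.19, and by -0.31 and -0.20 without knockout 1.

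Ldha, the lactate dehydrogenase subunit that favours lactate formation, had the highest positive difference of the 35 at its brightest probe. Its log2 ratio ran from -1.38 to -0.72 with a median of -1.13 in the 9 wild-type arrays and from -1.32 to -0.33 with a median of -0.87 in the 13 knockout arrays, and 11 of 13 knockout arrays were above the wild-type median. The groups overlapped. The difference was 0.20 (95% interval -0.023 to 0.43, p = 0.0763, adjusted p = 0.918 by limma). A second, also bright Ldha probe gave 0.12 (p = 0.369 by limma), below Eno1, Ankrd37, Bnip3, Aldoa, Pdk1 and Hif1a. The mean Ldha ratio was also taken by the position of the array on the slide. In wild type it was -1.13 (SD 0.20) in the 6 arrays of position 1 and -0.96 (SD 0.27) in the 3 of position 2. In knockout it was -0.9999 (SD 0.28) in the 3 arrays of position 2 and -0.97 (SD 0.23) in the 6 of position 3. The 4 knockout arrays of position 4 averaged higher, at -0.60 (SD 0.24). Differences between positions within a genotype were not tested. Within position 2, the one with both genotypes, the difference was -0.044, but 0.12 without knockout 1, the library whose Chsy1 ratio lay between the genotypes and 1 of only 3 knockout arrays there. Hk1, a hexokinase that traps glucose in the cell, differed by 0.11 over all arrays, by -0.10 within position 2 and by -0.044 there without knockout 1. Its 4 other tested probes, all dimmer, gave -0.016, -0.036, -0.024 and 0.0084 over all arrays. Aldoa, the main aldolase of muscle and most embryonic tissue, gave 0.13, -0.13 and -0.043 in the same order, and a second probe 0.082 over all arrays. Gpi1, glucose-6-phosphate isomerase, gave 0.049, -0.17 and -0.068, and a second, dim probe -0.044 over all arrays. The knockout arrays of position 4 averaged -0.78 for Hk1, -1.17 for Aldoa and -0.92 for Gpi1, above -0.97, -1.49 and -1.11 in position 3. Since no wild-type array lay in positions 3 or 4, position and genotype cannot be told apart there. Of the 35 members 13 had another sign within position 2 than over all arrays. Without knockout 1 there were also 13, of which 6 were shared, and no member was called in either setting.

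Eno1, the common enolase, gave 0.18 (p = 0.193) and 0.10 within position 2, or 0.024 there without knockout 1. Its lowest array was wild-type 6 at -2.90, and without that array the difference was 0.085. Pfkp, the platelet-type phosphofructokinase, differed by -0.16 (p = 0.0797), and by -0.085 without wild-type 1, its highest array. Its other 2 probes gave -0.29 and -0.11. The muscle-type Pfkm and the liver-type Pfkl, the other phosphofructokinases of the pathway, gave -0.074 and 0.022. The second hexokinase Hk2 differed by 0.011, the triose phosphate isomerase Tpi1 by 0.024, and the phosphoglycerate kinase Pgk1 by 0.070. The Pgk1 difference was 0.011 without knockout 13, and a second Pgk1 probe gave 0.052 over all arrays. Pgam1, which moves the phosphate of phosphoglycerate, gave 0.080, and Ldhb, the other lactate dehydrogenase subunit, 0.062. Each of these 7 had an interval that included 0.

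Gapdh, glyceraldehyde-3-phosphate dehydrogenase, is uncertain. Its brightest probe carried another array name and was placed by the scanner files on chr1:182164116-182164175 (mm8), away from the gene itself. That probe gave 0.015, with log2 ratios from -2.07 to -0.76 with a median of -1.18 in the 9 wild-type arrays and from -2.06 to -0.73 with a median of -1.17 in the 13 knockout arrays. Another bright probe (mean log2 intensity 14.7) with an array name other than Gapdh was placed on chr6:125127706-125127875 (mm8) and gave -0.0060. It overlapped the dim probe named Gapdh, at chr6:125127708-125127767, which gave 0.039. Gapdh and several other enzymes of the pathway have processed pseudogenes with near-identical sequence, so a probe may also read these copies.

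The carriers differed little. Slc2a1, the glucose transporter of most embryonic cells, gave 0.043 (95% interval -0.13 to 0.22). Slc2a3, a glucose transporter of high affinity, gave -0.051 (-0.18 to 0.078) and -0.040 at a second, dim probe, and Slc16a3, which exports lactate, 0.0016 (-0.20 to 0.20). The 4 regulators of flux were all higher in knockout, none past the threshold, with a median of 0.067. Pdk1 and Pdk3, kinases that switch off pyruvate dehydrogenase and so keep pyruvate from the citrate cycle, gave 0.12 and 0.033. A second Pdk1 probe gave 0.014 and a second Pdk3 probe 0.031. Pfkfb3 and Pfkfb4, which set the level of the phosphofructokinase activator fructose-2,6-bisphosphate, gave 0.10 and 0.030. Both other Pfkfb3 probes were dim and gave 0.0010 and 0.030. Within position 2, Pdk1 differed by -0.013 and Pfkfb4 by -0.16, and without knockout 1 by 0.16 and -0.054.

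Of the oxygen sensing genes, Hif1a gave 0.12 (-0.092 to 0.33), Egln1 -0.032 (-0.17 to 0.11) and Egln3 -0.11 (-0.33 to 0.11). A second, dimmer Egln1 probe gave 0.048. The Egln3 difference was -0.014 without wild-type 1, the highest array for that gene, and the Hif1a difference 0.061 without wild-type 3. Hif1a protein is controlled mainly by its stability, which an array does not measure.

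Among the 9 other hypoxia-inducible targets 7 were lower in knockout and 2 higher, with a median of -0.0082, and none passed the threshold. Adm, which encodes the vasodilator peptide adrenomedullin, had the most negative difference of the 35 members. Its log2 ratio ran from -4.14 to -2.61 with a median of -3.52 in the 9 wild-type arrays and from -3.91 to -3.28 with a median of -3.69 in the 13 knockout arrays. The wild-type arrays spread on both sides of the knockout arrays, and the difference was -0.24 (95% interval -0.51 to 0.040, p = 0.0902, adjusted p = 0.918 by limma). It was -0.13 without wild-type 1 and -0.044 within position 2, or 0.037 there without knockout 1. Vegfa, the growth factor that draws in blood vessels, differed by -0.00059 (-0.27 to 0.27). Its other 2 probes gave 0.080 and -0.060. Bnip3, a mitophagy receptor, gave 0.13 (0.069 without knockout 13), and Ankrd37, an ankyrin repeat gene, 0.16 (p = 0.0974). The collagen prolyl hydroxylase subunits P4ha1 and P4ha2 gave -0.12 and -0.0082, and a second P4ha1 probe -0.13. Within position 2 the P4ha1 difference was 0.099, and 0.19 without knockout 1. Ndrg1, a stress-responsive gene, gave -0.083, the carbonic anhydrase Car9 -0.071, and Ddit4, an inhibitor of mTORC1 signalling, -0.0025.

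The ratio to the reference RNA placed the members over a wide range. It says how each gene compares between forelimb and the reference mixture, and is not a level that can be ranked between genes. Ldhb averaged 2.78 ± 0.14 (SD, n = 9) in wild type, and Slc2a3 1.80 ± 0.15. Both were higher in the limb than in the reference in every array, as was Pdk3 at 0.96 ± 0.090. At the other end Ndrg1 was at -5.23 ± 0.24 and Egln3 at -3.66 ± 0.33. Adm stood at -3.41 ± 0.46 and Bnip3 at -2.80 ± 0.21. Most hypoxia targets and the common enzymes were therefore below the reference, and Pgk1 stood at -1.83 ± 0.16. Since the dyes were not swapped, these ratios carry any dye bias of the probe, which cancels in the difference between genotypes.

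**Figure D2:**
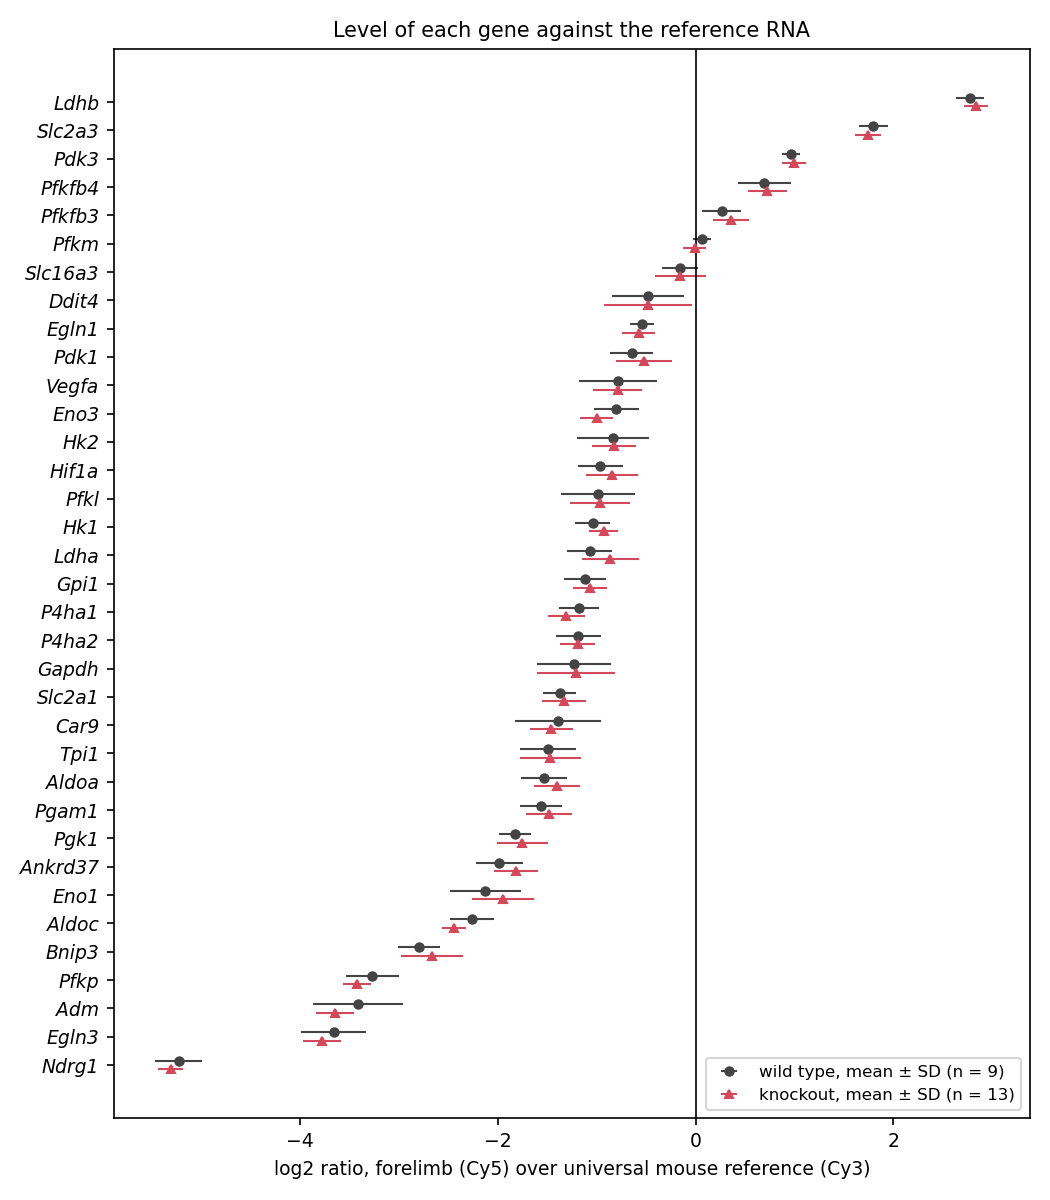
Mean log2 ratio of forelimb to reference RNA with its SD for each of the 35 genes, in wild type (n = 9, circles) and knockout (n = 13, triangles), sorted by the wild-type mean. The wild-type means run from -5.23 for Ndrg1 to 2.78 for Ldhb, and the SD bars of the genotypes overlap for every gene.

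The members spread more between arrays of one genotype than most genes did. The SD within genotype had a median percentile of 64 among all 18627 genes, and 11 of 35 members were above percentile 75. Ddit4 was at percentile 94.7, Gapdh, at its uncertain brightest probe, at 92.7, and Pfkl at 87.4. Eno1 followed at 87.1, Adm at 86.2, Car9 at 85.8 and Vegfa at 84.7. Pfkm at 7.96, Pdk3 at 10.1 and Ldhb at 18.7 were among the steadier genes. Probes of Pgk1, Gpi1 and Vegfa were printed 10 times on each array, and their spots differed within an array by a median SD of 0.032 to 0.035. Between arrays the SD of the same probes was 0.16 to 0.30. The SD was larger in wild type than in knockout for 20 of 35 members (57.1%), against 76.0% of all genes. By size, 8 members (22.9%) were over 1.5 times as variable in wild type, against 30.5% of all genes, among them Adm at 0.46 against 0.20 and Car9 at 0.44 against 0.22. Without wild-type 1 and knockout 12 there were 5 (14.3%), against 28.2%.

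**Figure D3:**
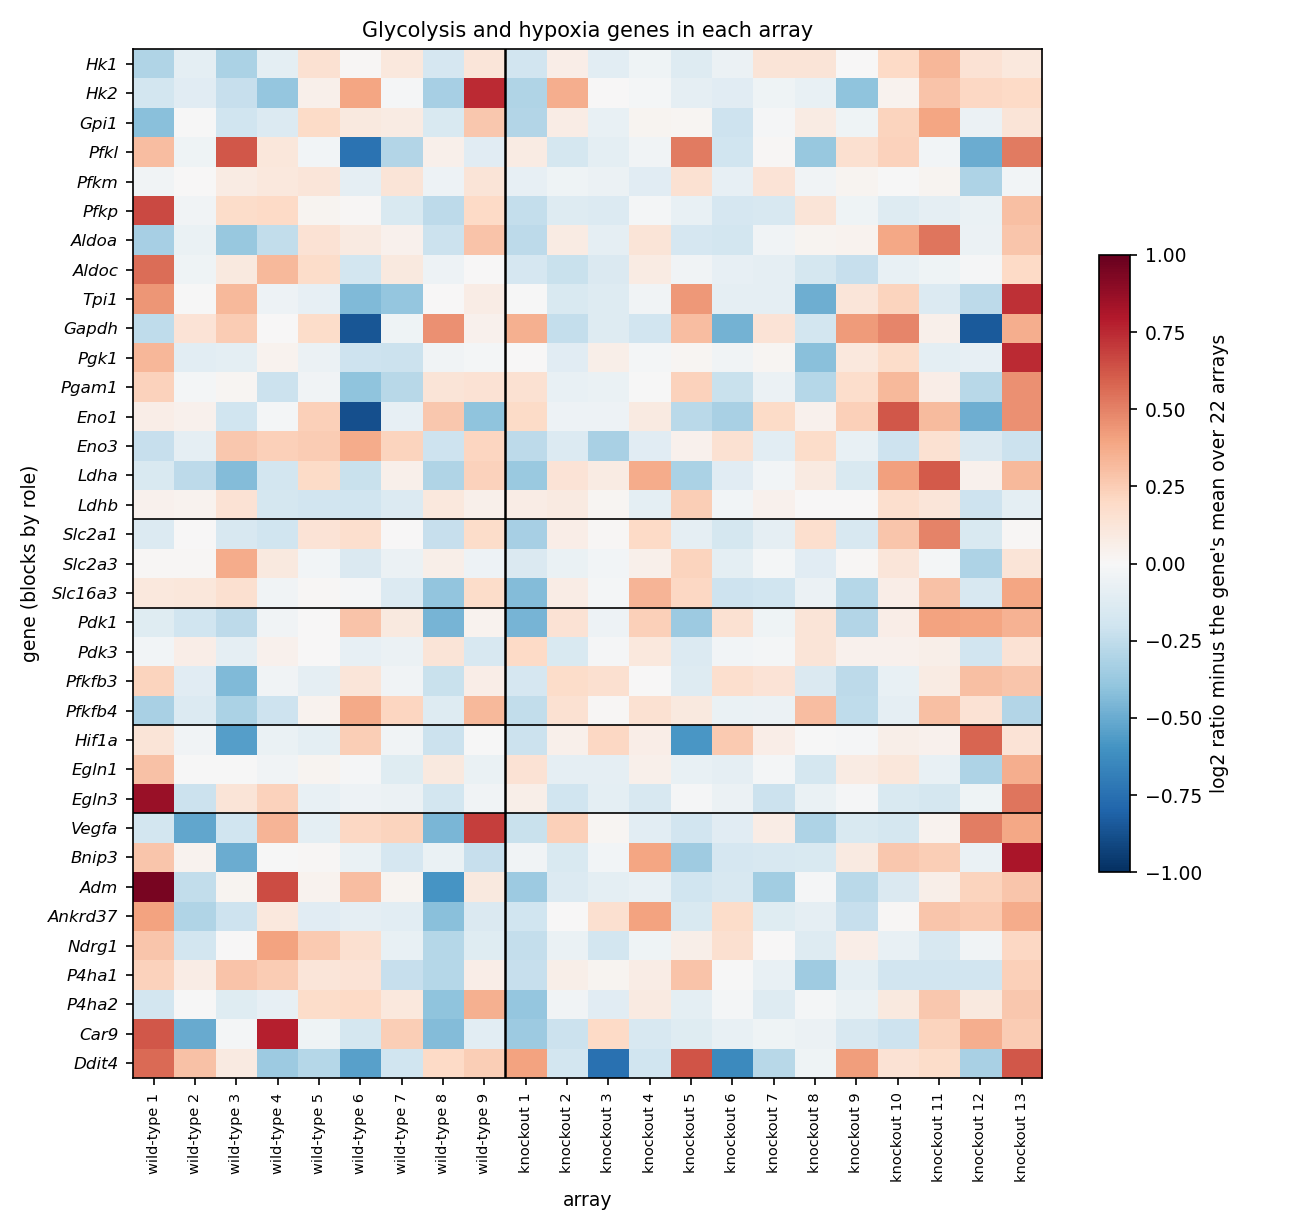
Log2 ratio of each of the 35 genes in each of the 22 arrays, minus the gene's mean over all arrays; rows are grouped by role and the vertical line separates 9 wild-type from 13 knockout arrays. Knockout 13 is above the mean for 31 genes and knockout 6 for 6, and no column shift separates the genotypes.

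The members did not vary as 1 block. Pgk1, which is both a glycolytic enzyme and a classical target of hypoxia-inducible factor, was correlated with each other member over the 22 arrays, with p-values from 100000 permutations adjusted over 18607 genes. The test passed for 4 of 34 members, 3 of them positive, against 2.19% of all genes. Tpi1 had r = 0.84 (permutation p = 1e-05, the smallest the permutations can give, adjusted p = 0.011; rho = 0.70, adjusted p = 0.066). Egln1 had r = 0.78 (adjusted permutation p = 0.014; rho = 0.57, 0.098) and Pgam1 r = 0.75 (adjusted permutation p = 0.011; rho = 0.70, 0.066). Pfkfb4 ran the opposite way, with r = -0.61 (adjusted permutation p = 0.039; rho = -0.59, 0.083). By rank, then, none of these 4 passed. Bnip3 at r = 0.70 and Egln3 at 0.64 did not pass either. The calls moved with the setting. Without knockout 13 and knockout 8, the arrays farthest from the Pgk1 median, 0 of 34 members passed. The same held after centring within slide and on the scanner log ratio. Of all genes only 0, 0 and 4 passed in these settings, so the zeros show nothing particular to the members. Centred on genotype 8 of 34 members passed, centred on slide position 5, and without wild-type 1 and knockout 12 there were 3. Of all genes 4.92%, 6.24% and 1.06% passed there. Leaving out knockout 13 and knockout 8 gave r = 0.70 for Tpi1, 0.63 for Egln1 and 0.67 for Pgam1. After centring within slide these were 0.87, 0.74 and 0.80, and within slide position 0.84, 0.83 and 0.74. Among the wild-type arrays alone Tpi1 had r = 0.76, and among the knockout arrays alone 0.89.

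A second pattern was found with Aldoa, a partner chosen after its values were seen, so its p-values support nothing. Gpi1 had r = 0.92 with Aldoa (rho = 0.94), Ldha 0.88 (rho = 0.84), Hk1 0.88 (rho = 0.82), Slc2a1 0.86 (rho = 0.83) and P4ha2 0.79 (rho = 0.84). The adjusted permutation p was 0.029 for each r and 0.031 for each rho. These were the 5 of 34 members past the threshold, against 1.3% of all genes, and 8 of 34 had an r of at least 0.5, against 7.18%. Without knockout 11 and knockout 10, the arrays farthest from the Aldoa median, 0 of 34 members passed, and 0 of all genes. The same held after centring within slide, so these zeros show nothing particular to the members. Centred on genotype, on slide position, or without wild-type 1 and knockout 12, 5 of 34 passed. Of all genes 0.086%, 0.425% and 0.0645% passed there. Without knockout 11 and knockout 10 Gpi1 had r = 0.89 and Ldha 0.81. Centred within slide position, Gpi1 had 0.92 and Ldha 0.81, and centred within slide 0.94 and 0.91. Pgk1 and Aldoa, which catalyse steps of the same pathway, had r = 0.087 (rho = -0.091, permutation p = 0.702 and 0.688), and r = -0.18 without knockout 13 and knockout 8. Some probes of both patterns were bright, with a mean log2 intensity of 15.8 for Tpi1, 15.7 for Pgam1, 15.8 for Gpi1 and 15.7 for Ldha. Others were dimmer, among them Egln1 at 10.3 and Pfkfb4 at 10.2 in the Pgk1 pattern. In the Aldoa pattern Hk1 stood at 13.1 and P4ha2 at 12.8. The separation moved with the normalisation. On the scanner software's own log ratios r between Pgk1 and Aldoa was -0.023, as low as after loess, but with median centring of each array it was 0.78, and 50.1% of all genes reached an r of 0.5 with Pgk1, against 4.41% after loess.

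**Figure D4:**
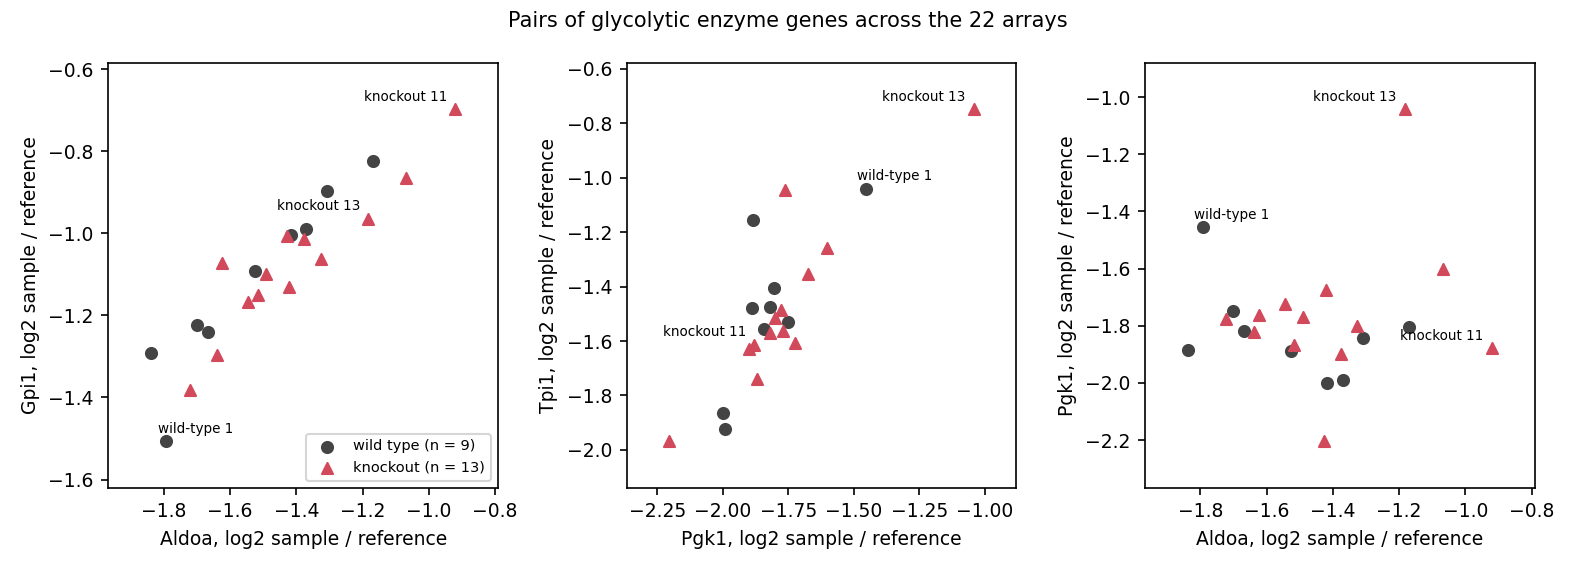
Log2 ratios of 3 pairs of enzyme genes in the 9 wild-type (circles) and 13 knockout arrays (triangles): Gpi1 against Aldoa, Tpi1 against Pgk1, and Pgk1 against Aldoa. The first pair has r = 0.92, the second 0.84 and the third 0.087, and knockout 13, knockout 11 and wild-type 1 are labelled.

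Single arrays carried the extremes of these patterns. Knockout 13 was the highest of all arrays for 6 members, Tpi1, Pgk1, Pgam1, Slc16a3, Egln1 and Bnip3, which is 17.1% of them against 2.54% of all genes. Its Pgk1 ratio was -1.04 and its Bnip3 ratio -1.90, against knockout medians of -1.78 and -2.76. Wild-type 1 and knockout 13 were the 2 highest arrays for 5 members, Pfkp, Tpi1, Pgk1, Egln1 and Egln3, or 14.3% against 1.43% of all genes. These arrays, and knockout 11 in what follows, were singled out because they were extreme in these members, so the shares describe that choice and support nothing. In Egln3 they stood at -2.87 and -3.20. The tissue markers of these 2 arrays differed from each other. The cartilage mean was -1.08 in wild-type 1 and -0.037 in knockout 13, the endothelial mean -1.02 and 0.18, and the skeletal muscle mean -0.58 and 0.13. Immediate early genes, which respond to handling of tissue, averaged 0.36 and -0.051. The part of tissue makeup and handling in these arrays was not tested.

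Knockout 11 was the highest array for 6 other members, Hk1, Gpi1, Aldoa, Ldha, Slc2a1 and Pdk1, against 3.85% of all genes. Its Aldoa ratio was -0.92 and its Ldha ratio -0.33. Its marker means for cartilage (-0.011), endothelium (-0.024) and skeletal muscle (-0.036) lay near the mean of all arrays. Knockout 10, knockout 11 and knockout 13 all lay in slide position 4. Without knockout 11 the Ldha difference was 0.16 and the Aldoa difference 0.087.

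Wider lists of the same pathways gave no called gene either. For the counts below, 5.33% of all genes had an unadjusted p under 0.05 by limma, 3.95% lower and 1.38% higher in knockout. Of 31 other glycolysis genes tested, 0 were called and 2 had an unadjusted p under 0.05 by limma, both lower in knockout: Gpd1l, which is related to glycerol phosphate dehydrogenase, at -0.18 and Pgam2, the muscle phosphoglycerate mutase, at -0.23. The neuronal enolase Eno2 gave -0.17 and the fructose bisphosphatase Tigar -0.15. Second probes gave -0.13 for Gpd1l, -0.16 for Eno2 and -0.22 for Tigar. The median of the 31 genes was 0.00026, with 15 lower and 16 higher. Of 46 other hypoxia pathway genes 0 were called and 7 had an unadjusted p under 0.05, 6 lower and 1 higher, against 5.33% of all genes. Their median was -0.049. The smallest p among them belonged to Ccn2, a matricellular growth factor gene strongly expressed in cartilage, at -0.39 (95% interval -0.61 to -0.16, adjusted p = 0.878 by limma). Ceruloplasmin (Cp) gave -0.23, the early response gene Ier3 -0.26 and the ubiquitin ligase Siah2 -0.12. Beside these, 10 of 12 immediate early genes were lower in knockout, 4 lower and 1 higher at an unadjusted p under 0.05, with a median of -0.17, and 12 of 16 cartilage markers were lower, with 0 lower and 1 higher at that p. Their part was not tested. Of 24 genes of pyruvate dehydrogenase and the citrate cycle 0 were called and 0 had an unadjusted p under 0.05 by limma. The smallest p-values there were those of Suclg2 at -0.100, Dlst at -0.095, Sucla2 at 0.072 and Dld at 0.079, subunits of enzymes of the cycle. Other tested probes gave -0.081 for Suclg2, 0.027 and -0.060 for Dlst, 0.12 for Sucla2, and 0.11 and 0.23 for Dld.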

How the data were processed

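Scanner files of 22 arrays were used. Per the file headers the authors scanned them with Agilent Feature Extraction 9.5.3.1 (9.5 in the submitters' processing notes), with probe positions on mm8. The deposited intensity columns are mean and median background signals of Cy5 and Cy3, and the deposited log10 ratio served as an alternative and equals the authors' value table. Intensities were background-corrected (limma 3.58.1 in R 4.3.3, normexp, offset 50) and loess-normalised within each array, giving log2 ratios computed here from the deposited intensities. Control and outlier spots were left out. Probes had to be well above background in Cy5, by the deposited flags, on at least 9 arrays. Probes were named through RefSeq accessions or symbols of the tables given, the brightest probe standing for a gene. Genotypes were compared with limma over all 22 arrays, without a block. Correlations were tested by permutation (Python 3.11.15) and adjusted over all genes, where the design had named the members. Named genes were Chsy1, every member, and in each wider list the called genes and the 4 with the smallest p. Members and lists were chosen with earlier results of these data known. Alternatives covered background correction, normalisation, filter, probe choice, blocks, weights and omitted arrays. The fit and the permutation test were tested on simulated data.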

Additional observations from a re-analysis of the deposited data

Results flagged for a closer look

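In the 9 wild-type arrays, 35 members and Chsy1 were examined for a single array far from the rest, a rule that flags about 1 in 20 groups by chance. It marked 4 of 36 genes. Wild-type 1 was high for Egln3 at a log2 ratio of -2.87 (next highest -3.50), for Pgk1 at -1.46 (next -1.75) and for Pfkp at -2.70 (next -3.16). Wild-type 3 was high for Slc2a3 at 2.14 (next 1.86). The 13 knockout arrays were too many for this rule.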

How the results depend on the processing

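Members called stayed at 0 (limma) under every alternative run, and the smallest member adjusted p was 0.107 (Hk1, median centring). Genes called numbered 1 with median centring, the scanner log ratio, the slide or position as a block, and without either wild-type 1 and knockout 12 or wild-type 1 and knockout 13, the latter pair chosen after seeing the data. They numbered 7 with array weights and 0 in position 2 alone, where Chsy1 differed by -4.66 and missed the threshold; there without knockout 1, a setting chosen after seeing the data, 1 gene was called. Leaving out 1 array gave 2 to 6 (2 without wild-type 2, 5 or 6). Median centring shifted all genes by 0.24; relative to that shift 7 members were lower. With the shift left in, unadjusted p (limma) fell under 0.05 for 25 members, all higher, against 2, both lower, with loess. The shift was one of all genes and their share at that p is not given, so this count is no result about the members. The replicate block also gave 1 called gene. Replicate numbers were no evidence of pairing, since same-numbered samples correlated from -0.31 to 0.49 in their deviations.

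No member is called on either side of 0, and small differences changed sign. With the replicate block these were Hk2 -0.068, Gpi1 -0.018, Tpi1 -0.034, Pgk1 -0.00017, Slc2a1 -0.019 and Slc16a3 -0.064. With position as a block and within position 2 they were Hk1 -0.10, Hk2 -0.11, Gpi1 -0.17, Aldoa -0.13, Gapdh -0.15, Ldha -0.044, Slc2a1 -0.070, Slc16a3 -0.010, Pdk1 -0.013, Pfkfb4 -0.16, Egln1 0.016, Egln3 0.013 and P4ha1 0.099. Within position 2 without knockout 1 they were Hk1 -0.044, Gpi1 -0.068, Pfkl -0.017, Aldoa -0.043, Tpi1 -0.036, Gapdh -0.33, Pgam1 -0.069, Pdk3 -0.054, Pfkfb4 -0.054, Adm 0.037, Ndrg1 0.032, P4ha1 0.19 and Car9 0.087. With array weights they were Hk2 -0.027, Gpi1 -0.018, Slc16a3 -0.0030, Pfkfb4 -0.032, Egln1 0.0026, Vegfa 0.0077 and Car9 0.013. Median centring, after the shift of all genes was taken off, gave Pfkm 0.031, Slc2a3 0.045, Egln1 0.055, Vegfa 0.11, Ndrg1 0.023, P4ha2 0.10 and Ddit4 0.10. The Cy5 channel alone gave Egln1 0.019, Egln3 0.022, P4ha2 0.0075 and Car9 0.030, and the scanner log ratio Egln3 0.011, Vegfa 0.030, P4ha2 0.017 and Car9 0.087. No background correction gave Vegfa 0.0098, P4ha2 0.0031 and Ddit4 0.010, the slide as a block Gapdh -0.00032, P4ha2 0.0027 and Ddit4 0.024, the mean of probes Egln1 0.0083 and Vegfa 0.0065 and a normexp offset of 10 Slc16a3 -0.0011. Without wild-type 1 and knockout 12 they were Hk2 -0.027, Pfkfb4 -0.018, Egln1 0.027 and Ddit4 0.095, and without wild-type 1 and knockout 13 Hk2 -0.027, Gpi1 -0.0083, Gapdh -0.045, Slc16a3 -0.018 and Ddit4 0.016. Leaving out 1 array at a time, differences moved by over 1.5 times for 26 of 35 members, 11 of them across 0, and ranged over Hk2 -0.036 to 0.11, Gapdh -0.091 to 0.086, Pfkfb4 -0.0073 to 0.080, Egln1 -0.063 to 0.0023, Car9 -0.14 to 0.021, Ddit4 -0.070 to 0.068, Slc16a3 -0.048 to 0.038, Vegfa -0.066 to 0.086, P4ha2 -0.059 to 0.035, Pfkl -0.069 to 0.10 and Tpi1 -0.036 to 0.080.

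Members correlated with Pgk1 past the threshold were 8 of 34 centred on genotype and 32 with median centring, against 4.92% and 57% of all genes. They were 0 centred on slide, with the scanner log ratio, without the 2 farthest arrays, and in wild type or knockout alone. Of all genes 0, 4, 0, 0 and 8 passed in the same order. An unadjusted permutation p under 0.05 was reached there by 9, 11, 8, 7 and 10 members, against 16.2, 13.4, 18, 14.2 and 14.1% of all genes. For Aldoa they were 32 with median centring and 8 with the scanner log ratio, against 63.4% and 16.3% of all genes. Centred on slide, without the 2 farthest arrays, or in either genotype alone, 0 members and 0 of all genes passed. At an unadjusted permutation p under 0.05 there were 10, 9, 9 and 9 members, against 14.3, 15.9, 17.3 and 3.28% of all genes. The resolution of 100000 permutations, adjusted over 18607 genes, limits these counts. The causes of these changes were not tested. The number of arrays limits precision throughout.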
